A study of Mus musculus with 14 samples.

Results

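The 37 genes described here encode the enzymes and transporters of glucose breakdown and the core of the cellular response to low oxygen. They were chosen by symbol, and all 37 had a row among the 24537 genes of each of 2 expression tables. RNA was sequenced from 14 sorted mouse samples. Skin regulatory T (Treg) cells, which express the transcription factor Foxp3 and restrain immune responses, were taken 24 h after hair depilation from 3 GR WT and 5 GR KO samples. Hair follicle stem cells (HFSC, sorted as CD34+ ITGA6high) were taken 4 days after depilation from 3 GR WT and 3 GR KO samples. GR WT stands for wild type, and GR KO for Foxp3YFP-Cre GRfl/fl mice, in which Cre made under Foxp3 control deletes the floxed glucocorticoid receptor gene. Deletion is thus aimed at Treg cells and not at the HFSC of the same mice. The labels give no age, and they do not say whether the wild-type mice carried the Cre or the floxed alleles. They also do not say that replicates are separate mice, so p-values measure only the spread between these samples, which may be technical.

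Glycolysis splits glucose into pyruvate in the cytosol, and pyruvate is then either reduced to lactate and exported or burned in mitochondria. Many of its steps can be run by one of several related enzymes encoded by separate genes, which differ in affinity, regulation and tissue. Hypoxia-inducible factor 1, made of the subunits encoded by Hif1a and Arnt, binds short DNA elements near many of these genes and raises their transcription when oxygen is low. Prolyl hydroxylases mark the Hif1a protein for destruction when oxygen is present, so the amount of Hif1a mRNA does not report the amount of the active factor. The skin's epithelium lies in an oxygen-poor setting, and hair follicle stem cells are known for lactate production by lactate dehydrogenase.

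Treg libraries held 9.17 M to 14.5 M recovered tags, and HFSC libraries 4.504 M to 7.99 M, of which WT replicate 1 was the shallowest. TPM is transcript abundance scaled by length and library size. For a transcript of 2000 bases, 3 tags, the limit that a count of 0 allows, were worth 0.138 to 0.207 TPM for Treg cells. For HFSC they were worth 0.308 to 0.515 TPM, counting error only. Of the tag counts above 0, 59.9% to 65.7% were even in each library, so tags may not be independent counts. The limit would then be higher, which was not tested. Nr3c1, the deleted receptor gene, stood at 129.5 ± 27.3 TPM (SD, n = 5) in Treg GR KO and 211 ± 35.3 TPM (SD, n = 3) in Treg GR WT, and the groups overlapped. In HFSC it stood at 43.6 ± 6.89 TPM in GR KO and 41.6 ± 7.07 TPM in GR WT (SD, n = 3 each). The 6 Treg markers summed to 6930 to 7653 TPM in Treg GR WT and 4545 to 7627 TPM in Treg GR KO, with overlap. Of the 6, 1 had Treg groups without overlap: Il2ra, lower in GR KO (log2 change -0.55, limma adjusted p = 0.00575). In HFSC the 6 Treg markers summed to 5.81 to 11.9 TPM in GR WT and 12.8 to 13.4 TPM in GR KO, without overlap. The 6 stem cell markers summed to 5365 to 8104 TPM in HFSC GR WT and 4291 to 5582 TPM in HFSC GR KO, with overlap. RNA of other cells differed between genotypes in the Treg table. There, 10 basal keratinocyte markers summed to 415 to 697 TPM in GR WT and 33.8 to 129 TPM in GR KO, with none of them at 0 in all libraries of a group. Macrophage and monocyte markers (13 genes, none at 0 throughout) summed to 216 to 385 TPM in GR WT and 65.4 to 172 TPM in GR KO. Neutrophil markers (5 genes, with Cxcr2 at 0 in GR KO) summed to 75.3 to 321 TPM in GR WT and 0 to 19.8 TPM in GR KO. Fibroblast markers (6 genes, none at 0 throughout) summed to 112 to 190 TPM in GR WT and 21.9 to 106 TPM in GR KO. Suprabasal keratinocyte markers (5 genes, with Lor at 0 in GR KO) ran from 7.63 to 39.2 against 1.75 to 4.06 TPM, and endothelial markers (4 genes, with Vwf at 0 in GR KO) from 17.5 to 30.5 against 13.4 to 17.4 TPM. In the HFSC table, the 10 basal keratinocyte markers (none at 0) summed to 23851 to 28611 TPM in GR WT and 18105 to 21448 TPM in GR KO, without overlap. There, 8 sebocyte and adipocyte markers, of which Plin1 was at 0 in all libraries, summed to 3050 to 4755 TPM in GR WT and 6962 to 8712 TPM in GR KO. Proliferation markers (6 genes, none at 0) summed to 621 to 818 TPM in HFSC GR WT and 455 to 606 TPM in HFSC GR KO. Melanocyte markers there (4 genes, with Mlana at 0 in GR KO) ran from 6.55 to 15.5 against 3.26 to 3.76 TPM. Conventional T cell markers there (6 genes, with Cd8a, Cd8b1 and Ccl5 at 0 throughout) ran from 0.301 to 1.01 against 1.03 to 2.52 TPM. In sorted bulk samples, fewer cells of a type and less RNA per cell cannot be told apart.

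The first question was which related enzyme each cell type used at each step. The 37 genes fell into 10 families of 2 or 3 members, plus single genes. The leading member, the one with the highest mean TPM, differed between Treg cells and HFSC in 5 of the 10 families: the lactate dehydrogenases, the lactate transporters, the pyruvate dehydrogenase kinases, the PFKFB enzymes and the prolyl hydroxylases. The share of the first-named member, its TPM over the sum of its family's members in the set, did not overlap between the Treg and HFSC libraries in 8 of the 10 families. Aldolases and enolases overlapped. Neither count of families was made for other gene families, so neither has a background to be set against. For single members, all 8 Treg libraries lay above all 6 HFSC libraries for 12 of 37, against 19.9% of the 13710 genes that passed the filter in either table. They lay below for 14 of 37, against 42.7% of those genes. The tables were made separately, and cell type, time after depilation and table cannot be told apart, so these values are a description with no test.

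**Figure D1:**
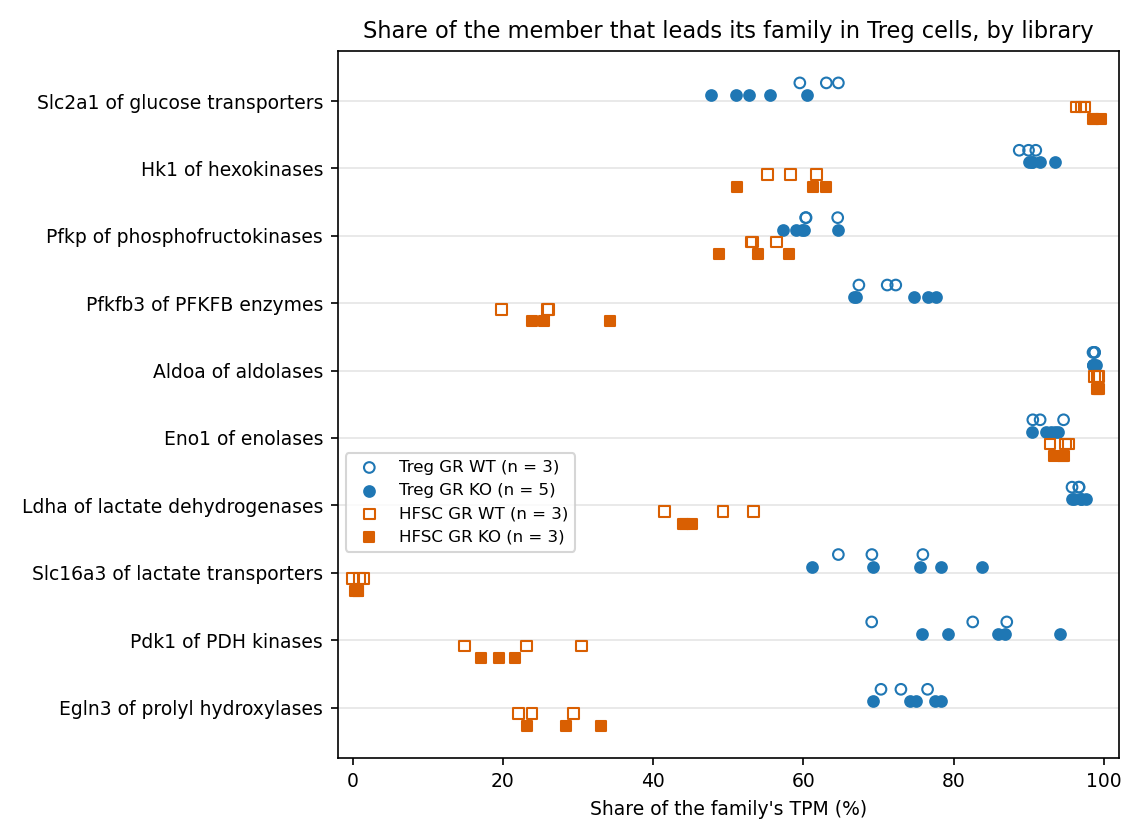
Share of each family's TPM (%, x axis) held by the member that leads the family in Treg cells, for 10 families, with 1 symbol per library (circles Treg, squares HFSC, open GR WT, filled GR KO). In the 8 Treg libraries Ldha held 95.7% to 97.6% of lactate dehydrogenase TPM, and in the 6 HFSC libraries 41.5% to 53.4%.

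Lactate dehydrogenase interconverts pyruvate and lactate, and its tetramers mix the A subunit (Ldha) and the B subunit (Ldhb), of which the A form is the one usually linked to lactate production. Lactate leaves or enters cells through monocarboxylate transporters, with Slc16a3 (MCT4) known as an exporter of glycolytic cells and Slc16a1 (MCT1) as a high-affinity carrier that works both ways. Their promoters are shown because both pairs switch leader between the cell types, and because Ldha and Slc16a3 are known targets of the hypoxia factor. Each window covers the 250 bases before the RefSeq transcript start (GRCm38.p6, the patch release of the mm10 build), printed 5′ to 3′ on the gene's strand. Capitals mark the core of the hypoxia factor's element, ACGTG or GCGTG on either strand (CACGT or CACGC as the reverse complements), with overlapping matches counted as 1 site. The palindrome CACGTG, which other factors also bind as an E-box, is among the matches.
Ldha promoter (chr7:46845554-46845803, plus strand): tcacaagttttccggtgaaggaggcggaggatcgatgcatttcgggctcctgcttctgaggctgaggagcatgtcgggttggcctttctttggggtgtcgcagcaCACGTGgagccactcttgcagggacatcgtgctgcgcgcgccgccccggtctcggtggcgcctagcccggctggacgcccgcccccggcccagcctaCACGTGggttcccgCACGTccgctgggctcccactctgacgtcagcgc
Ldhb promoter (chr6:142507958-142508207, minus strand): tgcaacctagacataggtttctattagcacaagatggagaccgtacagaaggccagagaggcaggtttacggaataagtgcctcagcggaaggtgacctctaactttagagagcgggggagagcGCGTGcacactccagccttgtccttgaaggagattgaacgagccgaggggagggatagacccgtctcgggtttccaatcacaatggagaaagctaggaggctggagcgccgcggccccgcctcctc
Slc16a3 promoter (chr11:120948817-120949066, plus strand): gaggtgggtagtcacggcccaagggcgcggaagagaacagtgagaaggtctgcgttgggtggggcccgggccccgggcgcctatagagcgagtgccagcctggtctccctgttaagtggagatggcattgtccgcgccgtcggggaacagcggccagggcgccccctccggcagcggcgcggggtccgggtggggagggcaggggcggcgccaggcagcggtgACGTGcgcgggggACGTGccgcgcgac
Slc16a1 promoter (chr3:104638414-104638663, plus strand): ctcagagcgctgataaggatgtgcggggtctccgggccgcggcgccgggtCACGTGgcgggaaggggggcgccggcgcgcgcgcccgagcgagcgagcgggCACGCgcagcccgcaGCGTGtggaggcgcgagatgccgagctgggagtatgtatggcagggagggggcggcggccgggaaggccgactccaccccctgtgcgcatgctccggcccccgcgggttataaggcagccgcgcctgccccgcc
These windows held 3 sites for Ldha, 1 for Ldhb, 2 for Slc16a3 and 3 for Slc16a1. Of the 37 genes, 36 had a promoter window, all but Slc2a3, and 32 of the 36 windows (88.9%) held at least 1 core. Over the 17565 genes of the tables with a window of the same length the share was 44.5%. Over genes that averaged 1 TPM or more it was 57.9% of 8693 in Treg cells and 58.3% of 9329 in HFSC. Median GC content was 62.8% in the members' windows, 55.6% in all windows, and 60% and 60.4% in the windows of expressed genes, so base composition moves with this count and its part was not tested. The palindromic glucocorticoid receptor element, AGAACA followed after 3 bases by its reverse complement TGTTCT, was in 0 of the 36 windows and in 1 of the 17565. The members were chosen as glycolysis and hypoxia response genes, many of them known for elements of the hypoxia factor. A higher share of its core than over all genes is thus in part built into the set. A match is a match of letters, not a bound site.

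In Treg cells nearly all lactate dehydrogenase RNA was Ldha (NM_010699, chr7:46845804-46855627, plus strand). Its TPM in the 3 GR WT Treg libraries was 724, 749 and 698, and in the 5 GR KO libraries 897, 742, 770.3, 642 and 762. Ldhb (NM_001302765, chr6:142490249-142507957, minus strand) stood at 31.9, 25.7 and 23.7 TPM in the GR WT and 21.6, 33.3, 23.9, 19.6 and 31.1 TPM in the GR KO Treg libraries. No Treg library of either gene came near the other gene's range. In HFSC, Ldha stood at 275, 308 and 324 TPM in GR WT and 329.6, 324 and 351 TPM in GR KO, while Ldhb stood at 388, 317 and 282 and 399.7, 412 and 442 TPM. Ldhb led in 5 of 6 HFSC libraries, and Ldha led in WT replicate 3. The mean Ldha level over the Treg libraries was 2.35 times that over the HFSC libraries, and the mean Ldhb level over the HFSC libraries was 14.2 times that over the Treg libraries. The lead of Ldhb in HFSC depended on the length correction: by share of tags, which does not divide by length, Ldha led there.

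The lactate transporters split more sharply. Slc16a3 (NM_001038654, chr11:120949067-120959000, plus strand) stood at 36.7, 41.6 and 64.9 TPM in the GR WT Treg libraries and at 75.5, 77.1, 43.6, 39.8 and 79.8 TPM in the GR KO Treg libraries. In the HFSC libraries it stood at 0, 1.07 and 0.571 TPM in GR WT and 0.571, 0.691 and 0.375 TPM in GR KO, which are 0, 10 and 6 and 6, 8 and 4 tags. The gene was thus at or near the detection limit in every HFSC library. Slc16a1 (NM_009196, chr3:104638664-104658462, plus strand) stood at 15.4 to 25.2 TPM across Treg libraries and 55.1 to 109 TPM across HFSC libraries, without overlap, and its HFSC mean was 3.78 times the Treg mean. Slc16a1 held 16.2% to 38.8% of the pair's TPM in Treg libraries and 98.5% to 100% in HFSC libraries.

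**Figure D2:**
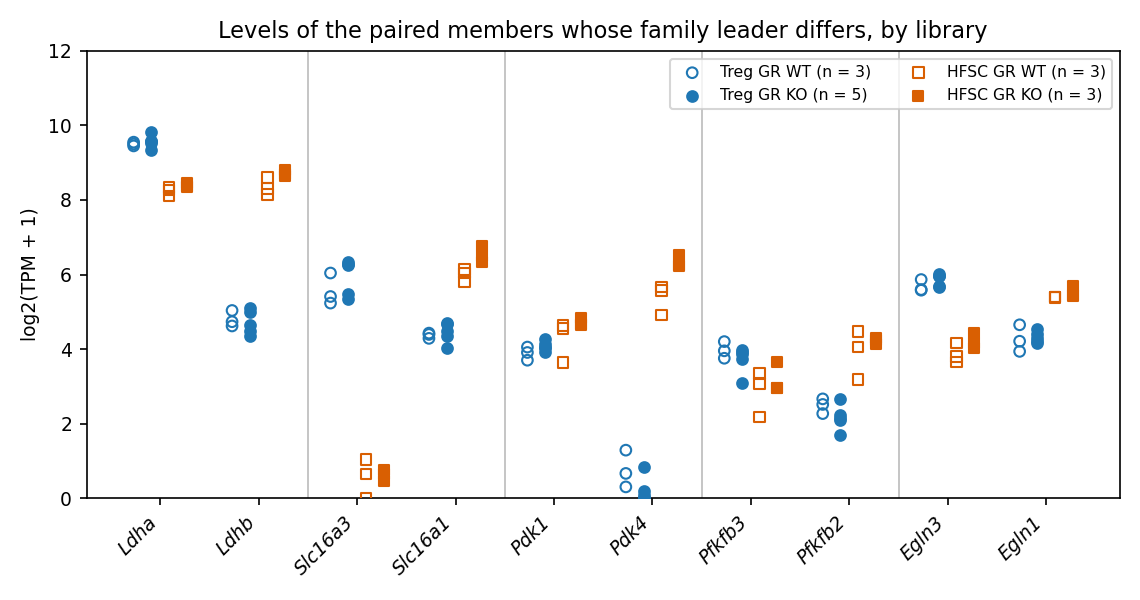
Level (log2(TPM + 1), y axis) of 10 members from the 5 families whose leading member differs between the cell types, with 1 symbol per library (circles Treg, squares HFSC, open GR WT, filled GR KO). Slc16a3 lies at 36.7 to 79.8 TPM across Treg libraries and at 0 to 1.07 TPM across HFSC libraries, and Pdk4 runs the other way, at 0 to 1.45 and 29.2 to 91.02 TPM.

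Pyruvate dehydrogenase kinases switch off the enzyme complex that feeds pyruvate into the mitochondrial citric acid cycle. Pdk1 (NM_172665, chr2:71873224-71903858, plus strand), a hypoxia target, stood at 12.05 to 18.3 TPM across Treg libraries and 11.6 to 27.7 TPM across HFSC libraries, and the ranges overlapped. Pdk4 (NM_013743, chr6:5483351-5496278, minus strand), the kinase known for its rise in fasting, stood at 0.240, 0.593 and 1.45 TPM in GR WT and 0.141, 0.0760, 0.794, 0 and 0 TPM in GR KO Treg libraries, with 2 GR KO libraries at 0. In HFSC it stood at 46.9, 29.2 and 49.7 TPM in GR WT and 74.4, 75.6 and 91.02 TPM in GR KO. Pdk2 stood at 1.05 to 4.502 TPM across Treg libraries and at 19.1 to 29.6 TPM across HFSC libraries. Of the TPM of these 3 kinases, Pdk1 held 69.1% to 94.2% in Treg libraries and 14.9% to 30.4% in HFSC libraries, where Pdk4 led in 6 of 6. The fourth kinase, Pdk3, is not among the 37 genes. With it counted, Pdk3 led in 7 of 8 Treg libraries and the share of Pdk1 there was 29.3% to 51.3%, while Pdk4 still led in HFSC.

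PFKFB enzymes make and break fructose 2,6-bisphosphate, the activator of phosphofructokinase, and Pfkfb3 is the form with the strongest kinase activity. Pfkfb3 (NM_001177758, chr2:11471431-11553929, minus strand) stood at 12.5, 17.4 and 14.5 TPM in Treg GR WT and 7.54, 12.3, 14.7, 13.6 and 14.2 TPM in Treg GR KO. In HFSC it stood at 3.55, 9.15 and 7.47 TPM in GR WT and 11.6, 6.82 and 6.83 TPM in GR KO, a range that overlapped that of the Treg libraries. Pfkfb2 (NM_001162416, chr1:130697017-130714576, minus strand), the form first described in heart, stood at 2.26 to 5.36 TPM across Treg libraries and 8.12 to 21.4 TPM across HFSC libraries, without overlap. Pfkfb3 led in 8 of 8 Treg libraries and Pfkfb2 in 6 of 6 HFSC libraries. The level of Pfkfb2 is uncertain because of sequence shared with another gene, as given below. Pfkfb4 was the least abundant of the 3 by mean in both, at 0.431 to 1.94 and 3.01 to 6.26 TPM.

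The prolyl hydroxylases Egln1 (PHD2), the main oxygen sensor of most cells, and Egln3 (PHD3), itself induced by hypoxia, also exchanged the lead. Egln3 (NM_028133, chr12:54178981-54203874, minus strand) stood at 46.9, 47.5 and 57.4 TPM in Treg GR WT and 60.96, 64.3, 49.9, 50.7 and 60.9 TPM in Treg GR KO, against 16.98, 12.9 and 11.6 TPM in HFSC GR WT and 15.4, 17.1 and 20.7 TPM in HFSC GR KO. Every Treg library lay above every HFSC library. Egln1 (NM_053207, chr8:124908587-124949254, minus strand) ran the other way, at 14.4 to 24.2 TPM across Treg libraries and 40.8 to 50.9 TPM across HFSC libraries, again without overlap. Egln1 held 21.7% to 30.7% of the pair's TPM in Treg libraries and 67.0% to 77.9% in HFSC libraries. With the third hydroxylase, Egln2, counted as well, Egln3 still led in 8 of 8 Treg libraries, but Egln2 led in 5 of 6 HFSC libraries.

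The other 5 families kept their leader. Glucose enters through Slc2a1 (GLUT1), the widely expressed carrier, and Slc2a3 (GLUT3), a high-affinity carrier of neurons and leukocytes. Slc2a1 stood at 36.3 to 71.7 TPM across Treg libraries and 88.2 to 115 TPM across HFSC libraries, and Slc2a3 at 29.6 to 44.1 and 0.452 to 3.65 TPM. Slc2a1 led in all HFSC libraries and in 7 of 8 Treg libraries, with Slc2a3 ahead in KO replicate 4, and by share of tags Slc2a3 led in Treg cells. Hk1, the hexokinase of most tissues, led in both cell types. Hk2, the inducible hexokinase, stood at 2.68 to 4.83 TPM in Treg and 32.4 to 56.9 TPM in HFSC libraries, where Hk1 held 51.2% to 63.1% of the family. Hk3 stayed at 0 to 2.01 TPM in Treg libraries, with GR KO at 0.211, 0.730, 0.238, 0 and 0 TPM and GR WT at 0.911, 0.177 and 2.01 TPM. It is a hexokinase of myeloid cells, and the macrophage and neutrophil markers given above were also lower in the GR KO libraries; their part in the Hk3 values was not tested. Among phosphofructokinases the platelet form Pfkp led in both, and the muscle form Pfkm was higher in HFSC (26.3 to 37.6 TPM) than in Treg cells (3.75 to 7.98 TPM). Aldoa and Eno1 led their families in all 14 libraries, with Aldoc at 9.29 to 14.98 and 6.097 to 8.99 TPM, Eno2 at 5.98 to 11.2 and 0.283 to 1.68 TPM, and Eno3 at 3.19 to 10.2 and 7.15 to 14.4 TPM in Treg and HFSC libraries.

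The hypoxia factor and its targets did not run in 1 direction between the cell types. Hif1a stood at 335 to 494 TPM across Treg libraries and 70.4 to 93.99 TPM across HFSC libraries, so the Treg mean was 4.91 times the HFSC mean. Its partner Arnt stood at 18.2 to 31.5 and 25.9 to 39.1 TPM, with overlap. P4ha1, a collagen prolyl hydroxylase subunit, stood at 55.05 to 73.3 TPM in Treg libraries, 3.87 times higher by mean than the 13.6 to 18.8 TPM in HFSC libraries. Bnip3, which promotes the removal of mitochondria, stood at 19.97 to 34.1 and 9.303 to 18.2 TPM, without overlap. Ankrd37 stood at 6.98 to 15.3 and 1.74 to 8.57 TPM, with overlap. Car9, the membrane carbonic anhydrase often used as a hypoxia marker, was at 0 to 0.708 TPM across Treg libraries and 3.904 to 10.2 TPM across HFSC libraries.

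Because Treg libraries held some keratinocyte RNA, the 14 members whose Treg libraries all lay below the HFSC libraries were set against it. The median basal keratinocyte marker reached 1.60% to 2.64% of its HFSC mean in the GR WT Treg libraries and 0.0663% to 0.377% in the GR KO Treg libraries. Ldhb reached 6.33% to 8.53% of its HFSC mean in GR WT and 5.26% to 8.90% in GR KO Treg libraries. Hk2 reached 5.66% to 10.2% in GR WT and 5.80% to 8.64% in GR KO. Pdk2 reached 8.33% to 15.7% and 4.20% to 18.0%. Pdk4, at 0.393% to 2.38% in GR WT and 0% to 1.30% in GR KO, and Car9, at 0% to 10.7% and 0% to 7.58%, did not lie clear of the keratinocyte level. The other 9 of the 14 (Slc2a1, Hk1, Gpi1, Pfkm, Pfkfb2, Pfkfb4, Pgam1, Slc16a1 and Egln1) ranged from 9.63% to 81.7%. The marker level stands for each gene only if all keratinocyte transcripts are carried over alike, and the part of carried-over RNA in these values was not tested.

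The levels of several core enzymes were low for genes that every cell uses. Gapdh, the dehydrogenase of the middle of the pathway, stood at only 14.8 to 21.3 TPM across Treg libraries and 3.26 to 6.63 TPM across HFSC libraries, while the neighbouring enzyme Tpi1 stood at 178 to 295 and 222 to 279.8 TPM. Pgk1 stood at 24.1 to 39.6 and 8.34 to 20.7 TPM, and Pgam1 at 5.202 to 11.97 and 15.4 to 20.2 TPM. The share of sequence held in common with other genes is given beside these levels. Of the 50-base words of the Gapdh transcript, 82.5% also occurred in transcripts of 222 other annotated genes, 213 of them pseudogenes. The share was 68.0% for Pgk1, 72.2% for Eno1 and 41.5% for Pgam1, but 7.51% for Tpi1 and 13.9% for Aldoa. Eno1 was not low, at 114 to 196 TPM in Treg and 159 to 219 TPM in HFSC libraries, so level and shared sequence did not run together in every gene. Over 50% of the words were shared in 5 of the 37 genes and under 10% in 24. The treatment of reads with several matches is not given in the sources used here. The levels of such genes, which also include Pfkfb2 at 65.7% and Bnip3 at 62.4%, are therefore uncertain, and the part of shared sequence in the low levels was not tested. The Pfkfb2 words were shared with 1 other gene. They were counted on a transcript of 1701 bases, beside 2367 bases for the deposited transcript. Eno1b, a near copy of Eno1, had 1.04 to 1.06 times the TPM of Eno1 in all 14 libraries, so the levels of the pair cannot be told apart. The Gapdh row also used a different transcript in each table (NM_008084 of 1413 bases for Treg cells, NM_001289726 of 1265 bases for HFSC), and so did the Hk3 row.

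**Figure D3:**
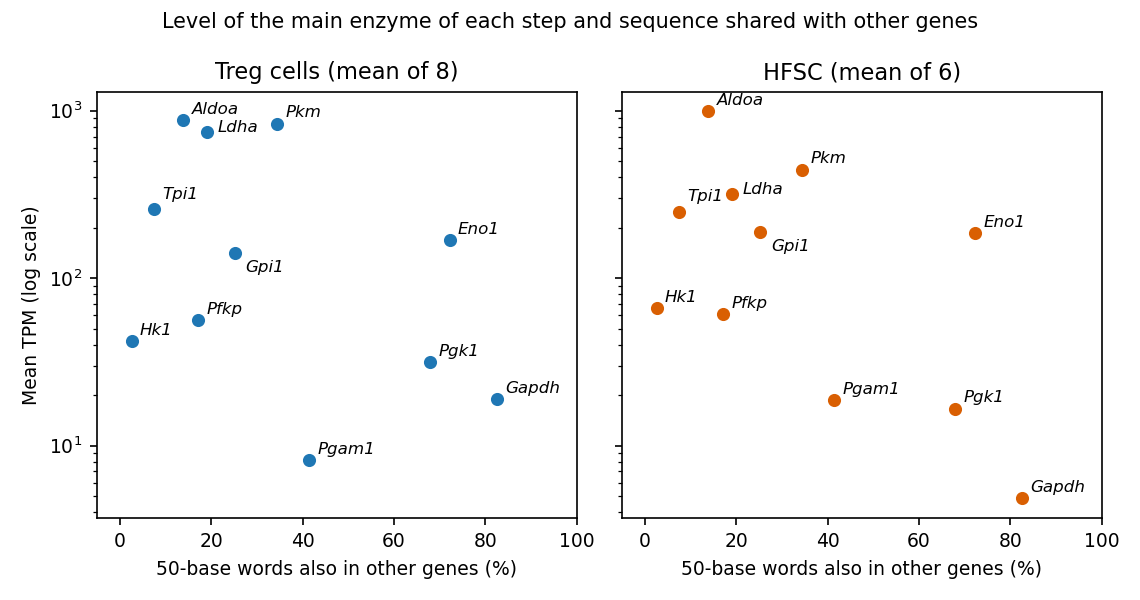
Mean TPM (log scale, y axis) of the main enzyme of each step in 8 Treg libraries (left) and 6 HFSC libraries (right), against the percentage of 50-base words of its transcript that also occur in other genes (x axis). Gapdh and Pgk1, with 82.5% and 68.0% of words shared, lie low in both panels, and Eno1, with 72.2%, lies among the higher genes.

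The second question was what receptor deletion changed in the targeted Treg cells. Of 34 members that averaged 1 TPM or more (all but Hk3, Pdk4 and Car9), 0 passed an adjusted p of 0.05 in limma, where 1.51% of all 11579 genes tested passed (175 genes, 23 or 0.199% higher and 152 or 1.31% lower in GR KO). At an unadjusted p under 0.05 the count was 1 of 34, against 14.1% of all genes (1 higher against 5.15%, 0 lower against 8.93%), and voom on recovered tags also called 0. Fitted changes were positive for 14 members (against 44.2% of all genes) and negative for 20, with a median of -0.04 on the log2(TPM + 1) scale, beside -0.04 over all genes tested. That median lay close to 0 whichever library was left out, turning to 0.04 without WT replicate 3 and to 0.02 without KO replicate 4.

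Pgk1 (NM_008828, chrX:106187100-106203699, plus strand), the first enzyme of glycolysis to make ATP, was the only tested member whose Treg groups did not overlap. It stood at 28.7, 27.9 and 24.1 TPM in GR WT and 39.6, 32.5, 38.6, 28.8 and 32.6 TPM in GR KO. All 5 GR KO libraries lay above all 3 GR WT libraries, but KO replicate 4 exceeded the highest GR WT library by little. The group values were 34.4 ± 4.54 against 26.9 ± 2.48 TPM (SD), with a log2 change of 0.34 (SE 0.13, limma adjusted p = 0.301). Among all genes tested 8.52% had groups without overlap, 3.42% with GR KO above and 5.1% with GR KO below.

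Hif1a and Slc2a1 are given in addition, chosen after their values were seen. Hif1a stood at 435, 479 and 461 TPM in GR WT and 349, 385, 335, 494 and 376 TPM in GR KO. Of the GR KO libraries, 4 of 5 lay below all GR WT libraries, and KO replicate 4 was the highest of the 8. In KO replicate 4 Nr3c1 stood at 171.4 TPM, within the GR WT range, whose lowest library had 170.5 TPM. Any link between the Nr3c1 and Hif1a values of that library was not tested. The log2 change of Hif1a was -0.25 (SE 0.12, limma adjusted p = 0.380). With 1 library left out it was -0.34 to -0.20, with a limma adjusted p of 0.0978 (without KO replicate 4) to 0.626. Slc2a1 stood at 50.5, 50.02 and 71.7 TPM in GR WT and 54.4, 46.001, 43.7, 36.3 and 49.1 TPM in GR KO, so WT replicate 3 stood above the rest and the other libraries mixed. Its log2 change was -0.31 (SE 0.16, limma adjusted p = 0.413) and shrank to -0.14 without WT replicate 3. For the genes that lead in Treg cells, the log2 change of Ldha was 0.07 (limma adjusted p = 0.819), that of Slc16a3 0.38 (limma adjusted p = 0.558) and that of Egln3 0.18 (limma adjusted p = 0.561), with overlapping groups. Keratinocyte, macrophage, neutrophil, fibroblast and endothelial markers were lower in the same GR KO libraries; their part in these values was not tested.

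**Figure D4:**
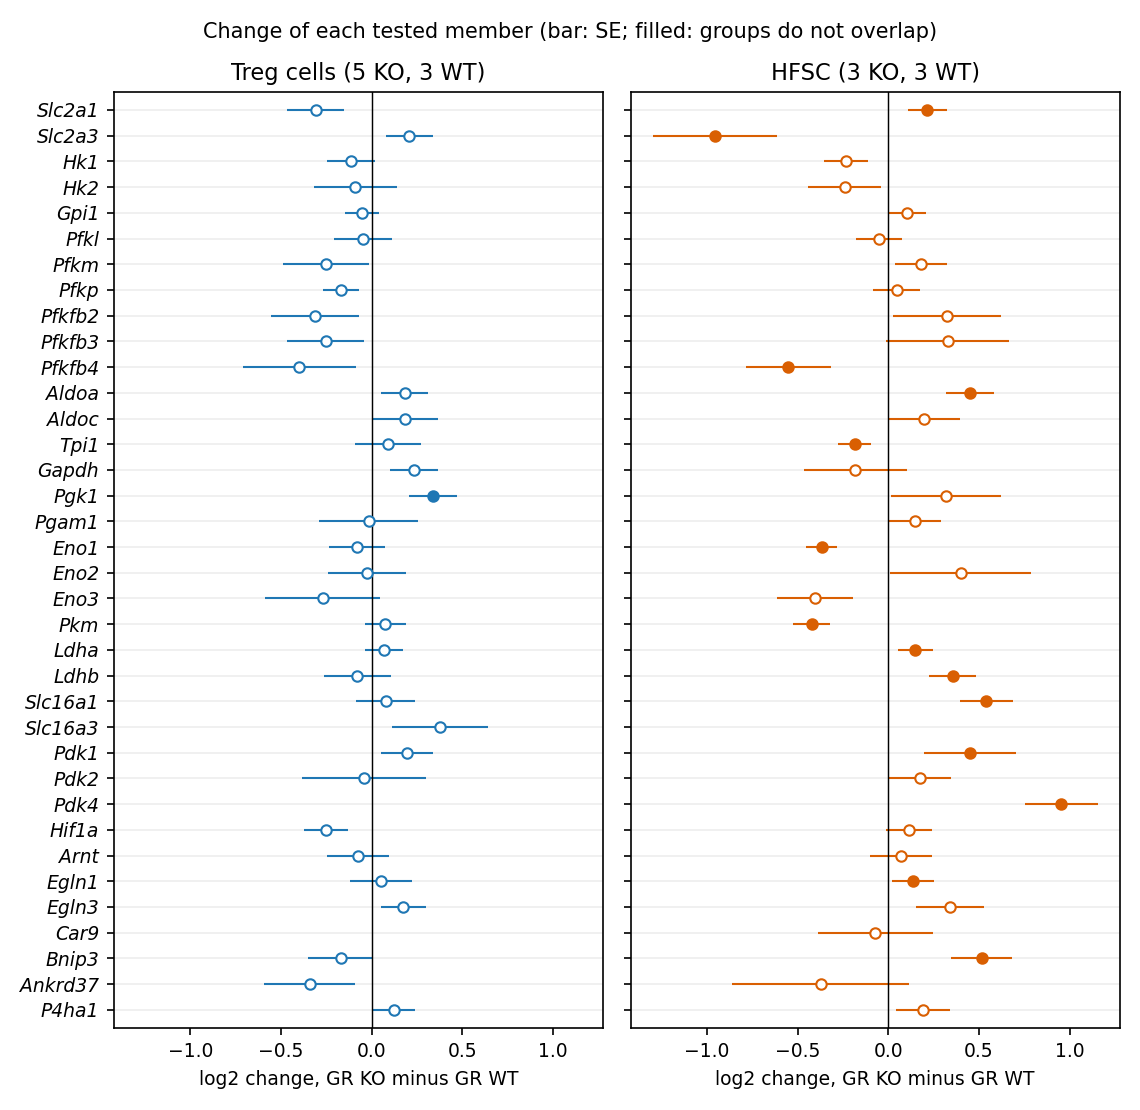
Fitted change of each tested member (log2(TPM + 1), GR KO minus GR WT, x axis) with its SE as a bar, in Treg cells (left, 5 GR KO and 3 GR WT) and HFSC (right, 3 and 3), filled where the groups do not overlap. In Treg cells 1 member is filled and in HFSC 14, and none passed an adjusted p of 0.05.

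The third question was whether the same genes differed in HFSC, which still carry the receptor gene but come from mice whose Treg cells were targeted. Of 35 members tested (all but Hk3 and Slc16a3), 0 passed an adjusted p of 0.05 in limma, where 0.176% of the 12493 genes tested passed (22 genes, 0.144% higher and 0.032% lower in GR KO). At an unadjusted p under 0.05 there were 9 of 35 (25.7%, 5 higher and 4 lower in GR KO), against 16.6% of all genes (7.8% higher, 8.8% lower). The GR KO libraries lay above the GR WT libraries without overlap for 9 members (25.7%, against 10.7% of all genes) and below for 5 (14.3%, against 12.8%), together 14, against 23.5%. Fitted changes were positive for 23 of 35 members (65.7%, against 47.2% of all genes), with a median of 0.15, beside -0.02 over all genes. Without WT replicate 1, the shallowest library, the median was 0.04, beside -0.08 over all genes, and 19 members were positive. Other models called some members: voom on recovered tags called 3 (Pdk4, Pkm and Eno1), and limma with sample weights called 5 (those 3, Ldhb and Bnip3). Those models also called far more of all genes tested, 483 and 584.

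At the fork of pyruvate, the kinase Pdk4 had the lowest p among members. Its TPM was 46.9, 29.2 and 49.7 in GR WT and 74.4, 75.6 and 91.02 in GR KO, so every GR KO library lay well above every GR WT library. The group values were 80.3 ± 9.28 against 41.9 ± 11.1 TPM (SD, n = 3 each), with a log2 change of 0.95 (SE 0.20, limma adjusted p = 0.0858, and 0.0121 to 0.147 over the other settings that kept all libraries). Pdk1 stood at 11.6, 22.5 and 23.9 TPM in GR WT and 24.7, 27.7 and 24.3 TPM in GR KO. Its groups met closely apart from the low WT replicate 1, and its log2 change of 0.45 (SE 0.25, limma adjusted p = 0.416) dropped to 0.13 without that library.

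On the lactate side, Slc16a1 stood at 55.1, 69.7 and 65.1 TPM in GR WT and 79.997, 89.9 and 109 TPM in GR KO. Its GR KO libraries were all higher, with a log2 change of 0.54 (SE 0.14, limma adjusted p = 0.135). Ldhb, whose values are given above, had group means of 418 ± 21.99 and 329 ± 53.96 TPM (SD) in GR KO and GR WT and a log2 change of 0.35 (SE 0.13, limma adjusted p = 0.226). WT replicate 1 came close to the GR KO libraries. Ldha also had no overlap, with GR KO above, but a small log2 change of 0.15 (SE 0.10, limma adjusted p = 0.488). Its highest GR WT and lowest GR KO libraries nearly touched, at 323.6 and 324.1 TPM.

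Of the pathway's trunk, 1 gene lay higher and 3 lay lower in GR KO. Aldoa, the aldolase of most tissues (NM_007438, chr7:126795234-126799254, minus strand), stood at 722, 986 and 812 TPM in GR WT and 1062, 1121 and 1243 TPM in GR KO, with a log2 change of 0.45 (SE 0.13, limma adjusted p = 0.155). Pkm, pyruvate kinase (NM_011099, chr9:59656368-59679375, plus strand), stood at 565, 481 and 482 TPM in GR WT and 366, 374 and 396 TPM in GR KO. Its change of -0.42 (SE 0.10, limma adjusted p = 0.114) had the opposite sign. Eno1, the enolase of most tissues (NM_023119, chr4:150237197-150248873, plus strand), stood at 203, 208 and 219 TPM in GR WT and 164, 165 and 159 TPM in GR KO, the tightest groups among these genes. Its log2 change was -0.37 (SE 0.09, limma adjusted p = 0.114), and its near copy Eno1b cannot be told apart from it. Tpi1, triose phosphate isomerase, stood at 279.8, 255 and 262 TPM in GR WT and 238, 240.3 and 222 TPM in GR KO, a log2 change of -0.19 (SE 0.09, limma adjusted p = 0.349).

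Of the glucose carriers, Slc2a1 stood at 95.4, 88.3 and 88.2 TPM in GR WT and 106, 95.7 and 115 TPM in GR KO, where the highest GR WT and lowest GR KO libraries nearly touched (log2 change 0.22, SE 0.11, limma adjusted p = 0.354). Slc2a3 stood at 3.65, 2.32 and 2.75 TPM in GR WT and 1.49, 1.197 and 0.452 TPM in GR KO, which are 42, 36 and 48 and 26, 23 and 8 tags. All GR KO libraries were lower, at few tags (log2 change -0.96, SE 0.34, limma adjusted p = 0.225). Pfkfb4 stood at 6.26, 4.63 and 5.62 TPM in GR WT and 4.19, 3.01 and 3.13 TPM in GR KO, also lower without overlap (log2 change -0.55, SE 0.23, limma adjusted p = 0.290). Among hypoxia genes, Bnip3 stood at 11.8, 9.303 and 11.7 TPM in GR WT and 15.3, 18.2 and 14.5 TPM in GR KO, higher without overlap (log2 change 0.51, SE 0.17, limma adjusted p = 0.190). Egln1 had no overlap either, with a log2 change of 0.13 (SE 0.12, limma adjusted p = 0.605). Its highest GR WT and lowest GR KO libraries were close, at 41.3 and 42.0 TPM. Hif1a itself overlapped, at 70.4, 86.98 and 85.9 TPM in GR WT and 93.99, 77.6 and 91.3 TPM in GR KO. Sebocyte and adipocyte markers, and the low T cell markers, were higher in the same GR KO libraries, as given above. Basal keratinocyte, melanocyte and proliferation markers were lower there. The part of all these markers' cells in these differences was not tested.

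**Figure D5:**
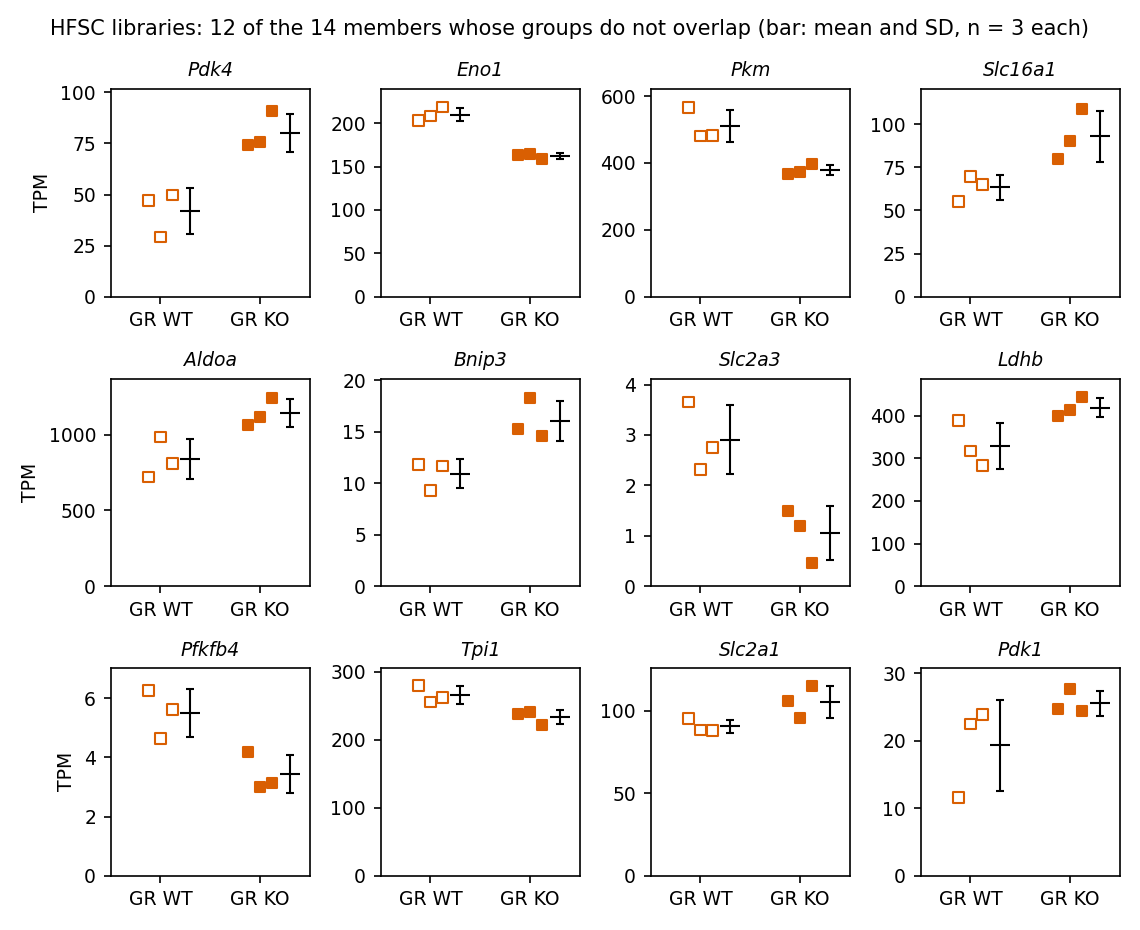
TPM (y axis, from 0) of 12 of the 14 members whose HFSC groups do not overlap, in 3 GR WT (open squares) and 3 GR KO libraries (filled squares), with the mean and SD as a bar. Pdk4 lies at 46.9, 29.2 and 49.7 TPM in GR WT and at 74.4, 75.6 and 91.02 TPM in GR KO, and Pkm and Eno1 lie lower in GR KO.

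The share of the first-named member of each family was also compared between genotypes. Of the 10 family shares, 0 passed in either table after adjustment over the 10, and in HFSC none could. In Treg cells Slc2a1 held 53.5% ± 4.82 of the glucose transporter TPM in GR KO (SD, n = 5) and 62.4% ± 2.62 in GR WT (SD, n = 3), with overlap (exact two-sided permutation p = 0.0536, adjusted 0.536, over 56 assignments, of which the smallest possible p is 0.0179). In HFSC the 20 assignments allow no p under 0.1. Slc2a1 there held 99.0% ± 0.536 in GR KO and 96.9% ± 0.569 in GR WT, without overlap (SD, n = 3 each; two-sided exact permutation test, p = 0.1, adjusted 0.5). Over the whole glucose transporter family its share was 77.8% ± 2.31 in GR KO and 75.0% ± 5.25 in GR WT, and the groups overlapped (SD, n = 3 each; p = 0.5 by the same exact permutation test). Pfkl, the liver form of phosphofructokinase, held 18.9% ± 0.324 in GR KO and 20.6% ± 0.361 in GR WT, also without overlap (exact two-sided permutation p = 0.1, adjusted 0.5). For the other 8 first-named members in HFSC and all 10 in Treg cells, the groups overlapped. Shares of the remaining members were not tested. Besides Slc2a3, which mirrors Slc2a1, some of these did not overlap in HFSC. Pdk2 held 24.6%, 30.0% and 28.7% in GR WT and 21.6%, 19.6% and 18.8% in GR KO. Pfkfb4 held 13.2% to 34.9% in GR WT and 10.5% to 12.4% in GR KO. Eno2, at few tags, held 0.132% to 0.746% in GR WT and 0.776% to 0.987% in GR KO.

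Genes around these members were read from 4 lists. Of 30 other hypoxia response genes, 24 were tested in Treg cells and 1 fell in GR KO: Ndrg1, a stress-induced gene, at 64.7 ± 4.42 against 89.4 ± 6.76 TPM (SD, n = 5 and 3; log2 change -0.46, SE 0.10, limma adjusted p = 0.0488). That call held in 3 of 18 alternatives and in 0 of the 8 that left out 1 library, where the adjusted p was 0.0583 to 0.194. The lower markers of other cells in the Treg GR KO libraries moved with it, and their part was not tested. In HFSC 27 were tested and 0 passed, with Ndrg1 at 35.5 ± 5.96 against 19.6 ± 1.97 TPM (log2 change 0.81, limma adjusted p = 0.0754) and Siah2, a ubiquitin ligase that targets prolyl hydroxylases, at a log2 change of 0.52 (limma adjusted p = 0.144). In HFSC, Ndrg1 passed under sample weights and under voom on recovered tags (adjusted p = 0.0177 and 0.0197), settings that also called 584 and 483 of all genes. At an unadjusted p under 0.05 the list held 4 genes in Treg cells, all lower, and 7 in HFSC, 6 higher and 1 lower, against 14.1% and 16.6% of all genes tested. Of 38 other genes of glucose and pyruvate handling, 26 were tested in Treg cells and 28 in HFSC, and 0 passed in either. At an unadjusted p under 0.05 there were 2 in Treg cells, both higher, and 10 in HFSC, 9 higher and 1 lower, against the same shares of all genes. The smallest HFSC p values belonged to Pdha1, a subunit of pyruvate dehydrogenase (log2 change 0.45, limma adjusted p = 0.105), and Mpc2, a subunit of the mitochondrial pyruvate carrier (log2 change 0.50, limma adjusted p = 0.123). The smallest in Treg cells belonged to Bpgm and Mpc2 (limma adjusted p = 0.328 and 0.331).

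All 17 citric acid cycle genes were tested in both tables and 0 passed. Cs, citrate synthase, had the smallest p in HFSC, at 380.3 ± 33.04 against 254 ± 34.6 TPM (SD, n = 3 each; log2 change 0.59, limma adjusted p = 0.0907). Mdh1, a malate dehydrogenase, had the smallest in Treg cells (log2 change 0.35, limma adjusted p = 0.163), followed by Sdhc, a subunit of succinate dehydrogenase (limma adjusted p = 0.344). In HFSC Mdh1 was second, with a log2 change of 0.28 (limma adjusted p = 0.287). Of 11 regulators of glycolysis, 11 were tested in Treg cells and 10 in HFSC, and 0 passed. Myc, a transcription factor that drives glycolytic genes, stood at 15.9 ± 3.54 against 26.1 ± 1.94 TPM in Treg cells (log2 change -0.70, limma adjusted p = 0.0943). In HFSC it stood at 121 ± 14.5 against 80.6 ± 4.27 TPM (log2 change 0.58, limma adjusted p = 0.0776), and it passed under sample weights and voom (adjusted p = 0.0224 and 0.0314). Irf4, a factor of activated lymphocytes, had a log2 change of -0.32 in Treg cells (limma adjusted p = 0.384). Txnip, which limits glucose uptake, had a log2 change of 0.73 in HFSC (limma adjusted p = 0.0754) and -0.05 in Treg cells (limma adjusted p = 0.843). At an unadjusted p under 0.05 there were 2 of 17 citric acid cycle genes in each table, all higher. Of the regulators there were 1 of 11 in Treg cells (lower) and 3 of 10 in HFSC (2 higher, 1 lower). Over all genes tested the share was 14.1% in Treg cells and 16.6% in HFSC. In HFSC the median log2 changes of the 4 lists, in the order given, were 0.18, 0.21, 0.06 and 0.25, and in Treg cells -0.05, 0.07, -0.03 and -0.09.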

How the data were processed

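Per the labels' protocols, RNA of flow-sorted cells went into stranded mRNA libraries. Tools named in the submitters' processing notes are STAR, HOMER, FastQC and Trim Galore, with the build mm10, and their settings were not given in the sources used here. The authors deposited TPM, abundance scaled by length, for 1 RefSeq transcript per gene, in 1 table for each cell type, per the file headers. The HFSC column names begin with a prefix of unexplained meaning, so genotype and number decided the match.

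Each table was fitted alone, over genes averaging 1 TPM or more, with limma 3.58.1 (R 4.3.3, trended prior) on log2(TPM + 1), two-sided, Benjamini-Hochberg over all genes, at an adjusted p of 0.05. Fold changes on that scale understate those of low genes. Levels across the tables were only described. The share of the first-named member of each family was compared by an exact permutation test. Multiplying TPM by length gave whole numbers of tags (within 0.1) for 100% of low values. These tags were used for voom, which takes them as independent counts, although even counts were in excess. Promoters are RefSeq windows of GRCm38.p6, and 50-base words were compared with GENCODE transcripts. The members, gene lists and tests were chosen with earlier results of these data known. For families whose leader differs, values in every library or ranges over libraries are given. Members with an unadjusted p under 0.05 or no overlap have values in every library of that table, up to 12 per table by p. From each other list the genes past the threshold, or otherwise the 2 with the smallest p, are named. The fit was tested on simulated data. Alternatives covered the pseudocount, the filter, scaling, prior, sample weights, voom, a replicate block and each library left out.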

Additional observations from a re-analysis of the deposited data

Results flagged for a closer look

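In the 5 Treg GR KO libraries, 47 values (37 members and 10 family shares) were screened for a library that stands apart from the others of its group, and 3 did. Chance alone flags about 1 in 20 groups. Tpi1 was lowest in KO replicate 4, at 178 TPM. Eno2 was highest in KO replicate 5, at 11.2 TPM. Pdk4 was highest in KO replicate 3, at 0.794 TPM, with the other 4 at 0 to 0.141 TPM.

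The 2 genes with the smallest p of each other list in each table came to 12 different genes. Of these, 4 had changes without overlap between the groups that ran in opposite directions in the 2 cell types. The 12 were taken for small p values, so a lack of overlap is in part built into this count. Over the 10362 genes tested in both tables, 124 (1.2%) had such changes. The log2 change of Ndrg1 was -0.46 in Treg cells and 0.81 in HFSC. That of Myc was -0.70 in Treg cells and 0.58 in HFSC. Tfrc, the transferrin receptor, had -0.28 in Treg cells and 0.88 in HFSC. Bpgm, which makes 2,3-bisphosphoglycerate, had 0.29 in Treg cells and -0.39 in HFSC. The difference between the cell types was not tested for these genes, since the tables were made separately.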

How the results depend on the processing

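The changes given for 6 members in Treg cells and 14 in HFSC, and those of Ndrg1 and Myc, kept their sign in every alternative. The median Treg change and some family shares, none of them past a threshold, did not keep their sign. In Treg cells 0 members passed in every alternative, while the count over all genes, 175, was 78 with the replicate block and 84 to 186 with 1 library left out (84 without WT replicate 3, 107 without WT replicate 1). In HFSC 0 members passed in every alternative except voom on recovered tags (3) and sample weights (5). The HFSC count over all genes, 22, was 2 with no filter, 48 with a mean of at least 5 TPM, 69 with median ratio scaling, 58 with quantile normalization, 51 with a robust prior, 584 with sample weights, 483 with voom, 66 with the replicate block and 0 to 5 with 1 library left out. HFSC calls were 18 higher and 4 lower, but 240 higher and 243 lower with voom. Whether replicate numbers pair the samples was looked at in what is left of each gene after its group mean is subtracted. These remainders correlated between same-numbered GR WT and GR KO libraries at -0.12 to 0.17 in Treg cells and -0.04 to 0.06 in HFSC. Differently numbered libraries gave -0.24 to 0.18 and -0.07 to 0.05. With so few libraries in a group, these values cannot decide whether samples were paired. The number of families with another leader was 5 in every setting, although other genes led with all family members counted or by tags. With 1 library left out, 14 to 21 Treg and 19 to 24 HFSC members had a positive change, and the median log2 change was -0.08 to 0.04 in Treg cells and 0.04 to 0.17 in HFSC. HFSC members with an unadjusted p under 0.05, 9, were 6 to 10. Treg members with a positive change, 14, were 16 with median ratio scaling and 18 with quantile normalization. The causes of these shifts were not tested. Depth limits Slc16a3 in HFSC and Pdk4, Car9 and Hk3 in Treg cells, and 3 HFSC libraries a group limit small changes.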
